A study of Homo sapiens with 12 samples.

Results

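The genes described here are 10 regulators of apoptosis of the BCL2 family, chosen by name and matched by symbol to the Ensembl identifiers of the deposited counts. They are 3 anti-apoptotic genes (BCL2, BCL2L1 and MCL1) and 7 pro-apoptotic ones, of which 2 encode pore-forming effectors (BAX and BAK1) and 5 encode BH3-only proteins (BCL2L11, PMAIP1, BBC3, BID and BIK). All 10 were found among the 60660 features of the count tables and all 10 were among the 12830 coding genes tested. Their mRNA was quantified in 12 RNA-seq libraries from human HEK293T cells, a derivative of the embryonic kidney line HEK293 that carries the SV40 large T antigen. The labels name HEK293T, whereas the paper's text names HEK293 for this experiment, and the labels are followed here. The cells were wild type in every group, grown in DMEM with FBS, and transfected with a control siRNA (siCTL) or with an siRNA against CARM1, CHD4, HDAC2, GATAD2A or KDM1A, 2 libraries per group. CARM1 is an arginine methyltransferase, CHD4, HDAC2 and GATAD2A are subunits of the NuRD chromatin remodelling and deacetylase complex, and KDM1A is a histone demethylase that the study counts with NuRD. The time between transfection and harvest and the siRNA dose are not in the labels, 1 cell line was used, and nothing in the labels says that the 2 libraries of a group came from separate cultures, so p-values measure the spread between these libraries, which may be technical.

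The BCL2 family decides whether the outer mitochondrial membrane stays closed. BAX and BAK1 form pores through which cytochrome c leaves the mitochondria, and BCL2, BCL2L1 (BCL-XL) and MCL1 hold them in check. BH3-only proteins carry a single short helix, the BH3 motif, which fits the groove of the anti-apoptotic proteins. BCL2L11 (BIM), BBC3 (PUMA) and BID can also activate BAX and BAK1 directly, whereas PMAIP1 (NOXA) binds mainly MCL1, and BIK sits largely at the endoplasmic reticulum. PMAIP1, BBC3 and BAX are textbook targets of p53, whose activity is blunted in HEK293T cells by the large T antigen and in HEK293 cells by adenoviral proteins. The level of an mRNA does not give that of its protein, and MCL1 protein in particular turns over fast.

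The BH3 motif is what unites the 3 roles, and its coding sequence is shown here because each role is defined by how this helix is used. In the canonical transcripts of GENCODE on GRCh37, each of the 10 genes held exactly 1 match to a leucine codon followed, after 3 other codons, by a glycine or alanine codon and an aspartate codon. The same letters occurred in 24.8% of the 19393 coding transcripts searched, or 13.8% when glycine alone was allowed, so a match by itself marks no BH3 protein. Each line gives 30 coding bases, 5′ to 3′ on the strand of the gene, with the leucine codon and the 2 closing codons in capitals.

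BCL2: ctgaccCTCcgccaggccGGCGACgacttc
BCL2L1: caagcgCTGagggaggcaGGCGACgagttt
MCL1: gagaccTTAcgacgggttGGGGATggcgtg
BAX: gagtgtCTCaagcgcatcGGGGACgaactg
BAK1: cggcagCTCgccatcatcGGGGACgacatc
BCL2L11: caagagTTGcggcgtattGGAGACgagttt
PMAIP1: actcaaCTCaggagatttGGAGACaaactg
BBC3: gcccagCTGcggcggatgGCGGACgacctc
BID: aggcacCTCgcccaggtcGGGGACagcatg
BIK: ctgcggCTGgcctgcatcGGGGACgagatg

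BBC3 was the gene with an alanine codon, GCG, and the other 9 had glycine codons. On GRCh37 the anti-apoptotic matches lie at chr18:60985588-60985617 (minus strand, exon 2 of 3) for BCL2, chr20:30309731-30309760 (minus, exon 2 of 3) for BCL2L1 and chr1:150551347-150551376 (minus, exon 1 of 3) for MCL1. Those of the effectors lie at chr19:49459038-49459067 (plus, exon 3 of 6) for BAX and chr6:33543170-33543199 (minus, exon 4 of 6) for BAK1. Those of the BH3-only genes lie at chr2:111907674-111907703 (plus, exon 3 of 4) for BCL2L11, chr18:57569899-57569928 (plus, exon 2 of 2) for PMAIP1, chr19:47729842-47729871 (minus, exon 3 of 4) for BBC3, chr22:18222187-18222216 (minus, exon 4 of 6) for BID and chr22:43523716-43523745 (plus, exon 3 of 5) for BIK. All are coding sequence.

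The libraries held 19308315 to 28648657 read pairs counted on genes. Replicates differed by more than counting noise in every group (chi-square over degrees of freedom between 1.77 and 4.99). The targeted mRNA fell in each knockdown. The level left was 19.3% of siCTL for CARM1, 19.7% for HDAC2, 29.8% for GATAD2A, 16.6% for KDM1A and 68.9% for CHD4. CHD4 exons overlap another gene on the same strand, and pairs on both genes are not counted. Whether this bears on the level left of CHD4 was not tested. Of 8 genes known from HEK293 cells, 6 were above 0.5 FPKM in all groups (PAX2 and NEFM were below). Of 5 genes of MCF7 breast cancer cells, which the study also used, ESR1, TFF1 and PGR were below it and GATA3 and KRT19 above. The leukocyte gene PTPRC had 0 or 1 count in every library. The paper names 2 companies for its RNA sequencing, and the labels do not say which of them sequenced which library. A batch of that kind, if there was 1, cannot be told apart from the groups.

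Levels were compared between genes as FPKM, the count scaled by exonic length and by the library total. Of the 10 mRNAs, PMAIP1 was the most abundant in siCTL, at 69.1 and 73.3 FPKM in the 2 libraries. BAX followed at 44.3 and 43.97 FPKM, MCL1 at 37.6 and 36.5 FPKM, and BAK1 at 33.7 and 33.5 FPKM. These 4 mRNAs stood apart from the rest, with the level of MCL1 between those of the 2 effectors. BCL2L1 had 11.8 and 12.5 FPKM and BBC3 had 12.2 and 11.01 FPKM, so that this neighbouring pair overlapped. BCL2L11 had 8.32 and 8.71 FPKM, and BID had 4.10 and 4.14 FPKM. BIK, with 2.94 and 5.10 FPKM, overlapped BID and had the widest gap between siCTL replicates relative to its level, which comes with counts of 54 and 112. BCL2 itself was the lowest member, at 1.36 and 1.52 FPKM. FPKM divides by all annotated exons, 12612 bases for BCL2 and 951 for BIK, so the use of short isoforms would lower the value of a long gene.

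**Figure D1:**
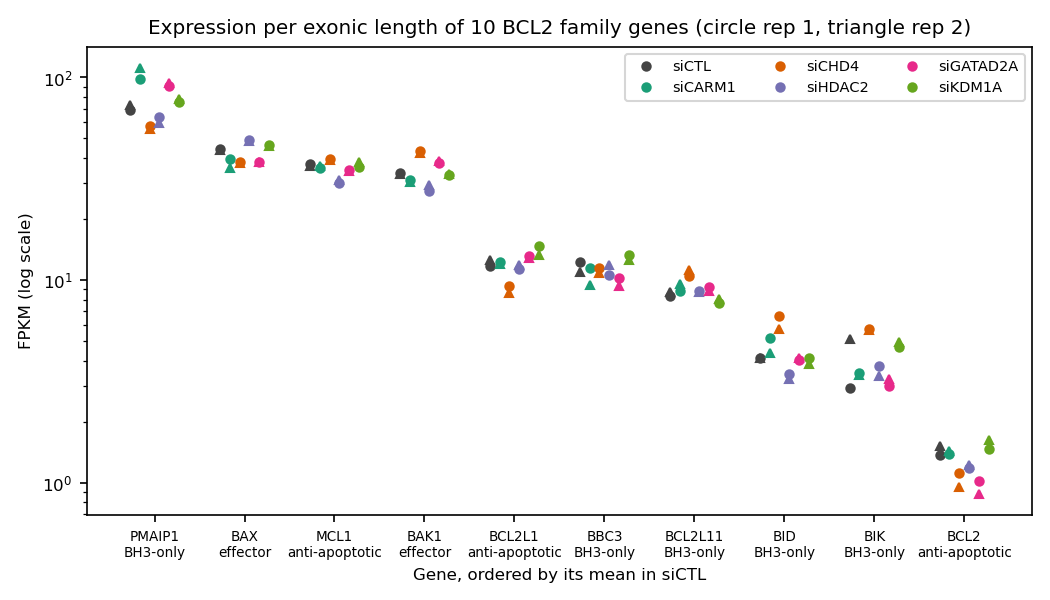
FPKM on a log scale of the 10 genes in each of the 12 libraries, ordered by the mean in siCTL, with colours for the 6 siRNA groups, circles for replicate 1 and triangles for replicate 2. PMAIP1 is highest and BCL2 lowest in every group, and the span over genes is far larger than that over groups within a gene.

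Among the anti-apoptotic mRNAs MCL1 made up 68.9% to 80.4% of the summed FPKM over the 12 libraries, against 72.3% and 74.1% in siCTL. The MCL1 share was highest in siCHD4, where the 2 libraries had 79.0% and 80.4%. The FPKM ratio of MCL1 to PMAIP1, its BH3-only partner, was 0.544 and 0.499 in siCTL. It was 0.364 and 0.330 in siCARM1, 0.385 and 0.371 in siGATAD2A, and 0.684 and 0.700 in siCHD4. In siHDAC2 (0.473 and 0.525) it overlapped siCTL, and in siKDM1A (0.477 and 0.487) it lay below both siCTL libraries. The FPKM ratio of BAX to BCL2 lay between 24.9 and 43.5 in all libraries, and these ratios are given without a test.

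Next, each knockdown was set against siCTL in edgeR's quasi-likelihood model, and a gene was called lower or higher at an adjusted p of 0.05 or less over all 12830 genes and a fold of at least 1.2. Of the 50 comparisons of a member with siCTL, 5 were called lower, 6 higher and 39 neither. Most of them fell in siCHD4, where 3 members were lower, against 24.9% of all tested genes, and 4 were higher, against 24% of all genes. In siCARM1 0 members were lower (14.5% of all genes) and 1 was higher (14.9%), with 2 of the negative values at an unadjusted edgeR p below 0.05. In siHDAC2 1 was lower (9%) and 0 were higher (10.6%), with 1 positive value below that p. In siGATAD2A 1 was lower (18.2%) and 1 was higher (15.7%). In siKDM1A 0 were lower (11.5%) and 0 were higher (14.2%), with 2 positive values below an unadjusted edgeR p of 0.05 and 1 at an adjusted p of 0.05 or less when no fold was asked. DESeq2 gave the same counts in all 5 knockdowns. For a list of 10 genes these counts lie near the shares of all genes. The 5 comparisons share the same siCTL libraries.

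The median log2 fold change of the members was 0.06 in siCHD4 and −0.20 in siHDAC2, with all tested genes at 0.00 in both. All 10 members differed among the 6 groups by edgeR's F test (largest adjusted p 0.0013), as did 91.1% of all tested genes. PMAIP1 had the largest F of the members, 80.4, and stood at rank 619 of the 12830 genes. It was followed by BAK1 with an F of 37.4 at rank 2049, and the smallest was that of BBC3, 5.51 at rank 9758.

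**Figure D2:**
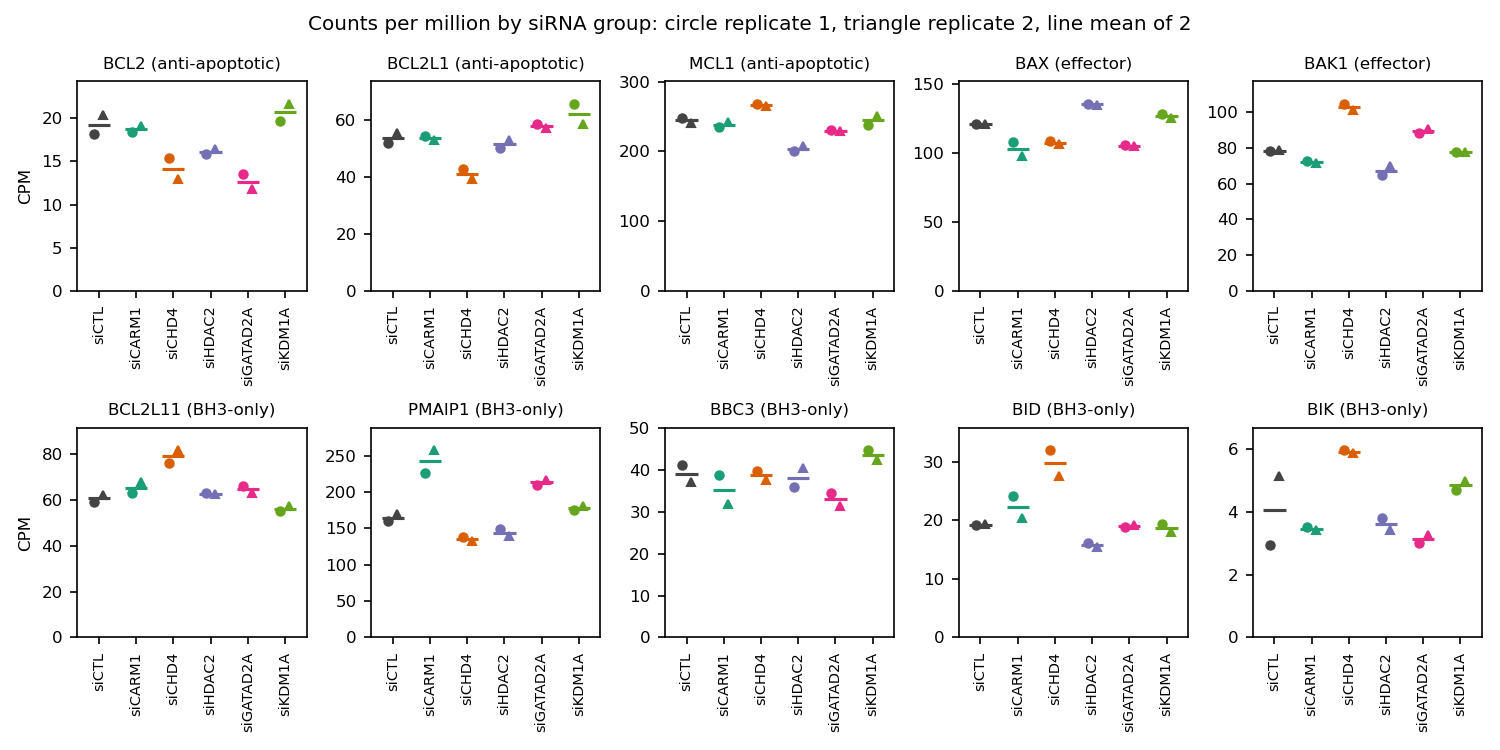
CPM (counts scaled by the TMM library size) of each gene in the 12 libraries, by siRNA group, with circles for replicate 1, triangles for replicate 2 and a line at their mean; axes start at 0. BAK1, BCL2L11 and BID are highest in siCHD4, and PMAIP1 is highest in siCARM1 and siGATAD2A.

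Of the anti-apoptotic genes, BCL2 (ENSG00000171791.14, chr18:60790579-60987361, minus strand) is the founding member of the family. It had 18.2 and 20.3 CPM in siCTL, 18.4 and 19.1 in siCARM1, 19.7 and 21.7 in siKDM1A, 15.8 and 16.4 in siHDAC2, 15.4 and 13.0 in siCHD4, and 13.6 and 11.8 in siGATAD2A. Both siCHD4 and both siGATAD2A libraries lay below both siCTL libraries, as did those of siHDAC2. Its log2 fold change was −0.45 in siCHD4 (standard error 0.104, edgeR adjusted p = 0.00040) and −0.60 in siGATAD2A (0.105, edgeR adjusted p = 1.6e-05). In siHDAC2 it was −0.26 (edgeR adjusted p = 0.050), short of the fold asked.

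BCL2L1 (ENSG00000171552.14, chr20:30252255-30311792, minus strand) encodes BCL-XL and, by splicing, the pro-apoptotic BCL-XS, which counts per gene do not separate. It had 52.2 and 55.7 CPM in siCTL and 42.9 and 39.2 CPM in siCHD4, without overlap. The other groups had 54.6 and 53.1 CPM in siCARM1, 50.3 and 53.0 in siHDAC2, 58.7 and 57.4 in siGATAD2A, and 65.8 and 58.9 in siKDM1A. It fell in siCHD4, with a log2 fold change of −0.40 (standard error 0.067, edgeR adjusted p = 5.6e-06). In siKDM1A it was 0.21 (standard error 0.064, edgeR adjusted p = 0.0098), which did not reach the fold asked. In the annotation 41.3% of its exonic bases lie under the antisense lncRNA ABALON. Counting without regard to strand, which drops pairs that overlap both genes, left 38.7% to 44.2% of its counts, and it was called lower in siCHD4 there too.

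MCL1 (ENSG00000143384.14, chr1:150533371-150552214, minus strand) was called in none of the 5 knockdowns. Its siCTL libraries had 247 and 241 CPM, and those of siHDAC2 were the lowest of all with 200.04 and 208 CPM. It had 235 and 242 CPM in siCARM1, 230.2 and 229 in siGATAD2A, and 238 and 251 in siKDM1A. The log2 fold change of −0.26 in siHDAC2 (standard error 0.042, edgeR adjusted p = 1.4e-05) was just under the 1.2-fold asked. In siCHD4, where BCL2 and BCL2L1 fell, MCL1 had 268 and 264 CPM, a log2 fold change of 0.12 (edgeR adjusted p = 0.0091).

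**Figure D3:**
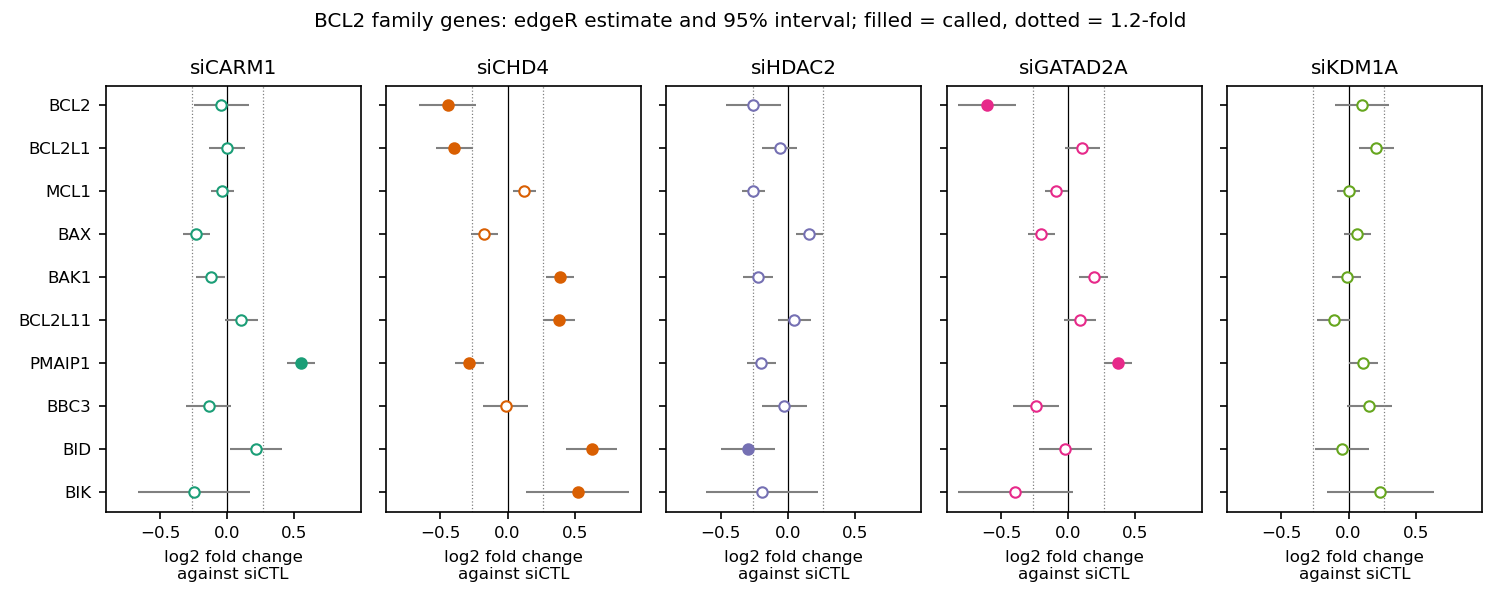
log2 fold change of each gene against siCTL in the 5 knockdowns, with the 95% interval of the edgeR estimate; filled points were called, open points were not, and dotted lines mark a 1.2-fold change. siCHD4 holds 7 of the 11 called values and siKDM1A holds 0.

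Of the effectors, BAK1 (ENSG00000030110.13, chr6:33540324-33548070, minus strand), which resides in the outer mitochondrial membrane, had 78.6 and 78.7 CPM in siCTL. It had 105 and 102 CPM in siCHD4 and 88.4 and 91.0 CPM in siGATAD2A, all above siCTL. In siCARM1 it had 73.0 and 71.4 CPM, in siHDAC2 64.8 and 69.8, and in siKDM1A 78.0 and 78.1. BAK1 rose in siCHD4, with a log2 fold change of 0.39 (standard error 0.052, edgeR adjusted p = 9.6e-08). In siGATAD2A it was 0.19 and in siHDAC2 −0.22, both under the fold asked, with edgeR adjusted p of 0.0031 and 0.0017. BAX (ENSG00000087088.20, chr19:49458072-49465055, plus strand), which is cytosolic until activated, was called in no knockdown. It had 121 CPM in both siCTL libraries, 108 and 97.7 in siCARM1, 108 and 106 in siCHD4, 105 in both siGATAD2A libraries, 135 in both of siHDAC2, and 128 and 125 in siKDM1A. BAX values were −0.23 in siCARM1, −0.17 in siCHD4, −0.20 in siGATAD2A and 0.16 in siHDAC2 on the log2 fold change scale, and no library of these 4 groups overlapped siCTL. In siCHD4, siGATAD2A and siHDAC2 the 2 effectors thus had log2 fold changes of opposite sign. The signs also differed in siKDM1A, where both values were small (BAX 0.06 and BAK1 −0.01).

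Of the BH3-only genes, PMAIP1 (ENSG00000141682.12, chr18:57567228-57571537, plus strand), whose product NOXA binds MCL1, had the largest F over the 6 groups. It had 159.5 and 170.0 CPM in siCTL, 227 and 257 in siCARM1, 210 and 216 in siGATAD2A, 175 and 181 in siKDM1A, 149 and 139 in siHDAC2, and 138 and 133 in siCHD4. The libraries of siCARM1 and siGATAD2A lay above all others and those of siCHD4 below all others. PMAIP1 rose in siCARM1, with a log2 fold change of 0.55 (standard error 0.051, edgeR adjusted p = 3.2e-10), and in siGATAD2A, with 0.37 (0.052, edgeR adjusted p = 4.6e-07). It fell in siCHD4, with −0.29 (0.053, edgeR adjusted p = 2.1e-05). Without replicate 2 of siCTL the siCHD4 value was −0.24 and no longer called.

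BID (ENSG00000015475.19, chr22:18216904-18257536, minus strand) links death receptors to mitochondria, since caspase-8 cleaves it to its active form. It had 19.1 and 19.4 CPM in siCTL, 31.9 and 27.6 in siCHD4, 24.1 and 20.4 in siCARM1, 18.8 and 19.2 in siGATAD2A, 19.3 and 17.98 in siKDM1A, and 16.1 and 15.4 in siHDAC2. Both siCHD4 libraries were above, and both siHDAC2 libraries below, every other library. Its log2 fold change was 0.63 in siCHD4 (standard error 0.092, edgeR adjusted p = 6.0e-07), the largest rise of a member. In siHDAC2 it was −0.30 (0.0997, edgeR adjusted p = 0.020), a call that was lost without either siCTL library or without replicate 2 of siHDAC2, at −0.31, −0.29 and −0.26. Counts on the opposite strand of BID were 7.11% to 15.9% of those on its own strand.

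BCL2L11 (ENSG00000153094.24, chr2:111876955-111926021, plus strand), whose product BIM binds all anti-apoptotic members, had 59.2 and 62.3 CPM in siCTL and 76.5 and 81.8 CPM in siCHD4. It rose there with a log2 fold change of 0.38 (standard error 0.058, edgeR adjusted p = 1.1e-06). It had 63.0 and 68.1 CPM in siCARM1, 66.2 and 63.2 in siGATAD2A, 63.0 and 62.8 in siHDAC2, and 55.4 and 57.3 in siKDM1A, and was called in none of these. Of its exonic bases 10.8% lie under the antisense gene MIR4435-2HG. BIK (ENSG00000100290.3, chr22:43506756-43525718, plus strand) had 2.95 and 5.15 CPM in siCTL and 5.96 and 5.88 CPM in siCHD4, a log2 fold change of 0.52 (standard error 0.189, edgeR adjusted p = 0.016). Elsewhere it had 3.50 and 3.44 CPM in siCARM1, 3.01 and 3.27 in siGATAD2A, 3.81 and 3.43 in siHDAC2, and 4.71 and 4.99 in siKDM1A, all between the 2 siCTL libraries. Its siCHD4 value was 0.20 without replicate 1 of siCTL and 0.998 without replicate 2, and the call was lost without replicate 1 of siCTL or without either siCHD4 library. Counts on the opposite strand of BIK were 11.8% to 38.9% of its own, 28.8% in siCTL and 14.6% in siCHD4, and the part of such reads in its value was not tested.

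BBC3 (ENSG00000105327.18, chr19:47724079-47736023, minus strand) encodes PUMA, a BH3-only protein best known from the p53 response. It had 41.1 and 37.2 CPM in siCTL, 38.8 and 32.0 in siCARM1, 34.6 and 31.5 in siGATAD2A, 39.9 and 37.7 in siCHD4, 36.0 and 40.4 in siHDAC2, and 44.7 and 42.4 in siKDM1A. The groups other than siGATAD2A and siKDM1A overlapped siCTL, and BBC3 was called in no knockdown. Its lowest log2 fold change was −0.24 in siGATAD2A (standard error 0.083, edgeR adjusted p = 0.016). Of the p53 targets among the members, PMAIP1 rose in siCARM1 and siGATAD2A, while the log2 fold changes of BBC3 and BAX were −0.14 and −0.23 in siCARM1 and −0.24 and −0.20 in siGATAD2A. In siHDAC2 they were −0.20 for PMAIP1, −0.03 for BBC3 and 0.16 for BAX. In siCHD4 all 3 had a negative value (PMAIP1 −0.29, BBC3 −0.01 and BAX −0.17), and in siKDM1A all 3 had a positive one (0.11, 0.16 and 0.06), of which PMAIP1 in siCHD4 was the 1 called.

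To ask where knockdowns differ from each other, all 10 pairs were compared in the same model, by contrasts that leave out the siCTL mean though its libraries enter the estimate of the spread. Members were called 45 times over the 10 pairs. The pairs with siCHD4 gave 7 called members against siCARM1 (47.7% of all tested genes were called), 7 against siHDAC2 (48.8%), 5 against siGATAD2A (44.8%) and 6 against siKDM1A (47.7%). Of the other pairs, siCARM1 and siHDAC2 differed in 3 members (19.3% of all genes), siCARM1 and siGATAD2A in 2 (33.8%), and siCARM1 and siKDM1A in 3 (21%). siHDAC2 and siGATAD2A differed in 5 (29.5%), siHDAC2 and siKDM1A in 3 (14.3%), and siGATAD2A and siKDM1A in 4 (32.1%). By member, PMAIP1 was called in 7 of the 10 pairs, BCL2 and BID in 6, BCL2L1, BAX and BAK1 in 5, BCL2L11 and BIK in 4, BBC3 in 2 and MCL1 in 1.

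The order of groups thus differed from gene to gene. PMAIP1 was higher in siCARM1 than in siHDAC2 by 0.75 (log2, standard error 0.051) and than in siKDM1A by 0.44 (0.051), while siCARM1 and siGATAD2A, its 2 highest groups, differed by 0.18 (0.050) and were not called. siCHD4 and siHDAC2, its 2 lowest, differed by −0.09 (0.053) and were not called. BCL2 was lower in siGATAD2A than in siCARM1, siHDAC2 and siKDM1A, and its siCHD4 and siGATAD2A levels differed by 0.16 (standard error 0.108), not called. BCL2L1 was lower in siCHD4 than in each of the other 4 knockdowns, by 0.33 to 0.60 on the log2 scale. BCL2L11 and BID were higher in siCHD4 than in each of the other 4. BAX was called in 5 pairs although in no comparison with siCTL, among them siCARM1 below siHDAC2 by −0.39 (0.049) and siHDAC2 above siGATAD2A by 0.36 (0.049). MCL1 differed in 1 pair, with siCHD4 above siHDAC2 by 0.38 (0.041).

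The balance of the roles was described in each library as the mean log2 CPM of the 7 pro-apoptotic genes minus that of the 3 anti-apoptotic genes. It was −0.55 ± 0.03 (SD, n = 2) in siCTL and −0.09 ± 0.06 in siCHD4, a difference of 0.45 made of a pro-apoptotic mean higher by 0.22 and an anti-apoptotic mean that differed by −0.24. Differences from siCTL were 0.18 in siGATAD2A, 0.10 in siHDAC2, 0.05 in siCARM1 and −0.04 in siKDM1A. The siCHD4 libraries, at −0.13 and −0.05, lay apart from all other libraries, which ranged from −0.60 to −0.33. No test was run on this score, since its genes were chosen with results of these data known. Each gene counts the same in these means, whatever its abundance. In siCHD4 the difference stayed between 0.35 and 0.77 with any member left out or with medians in place of means. The other values changed sign or size with the genes averaged: siGATAD2A was −0.03 without BCL2, siCARM1 −0.04 without PMAIP1, siHDAC2 0.16 without BCL2L1, and siKDM1A 0.01 without BCL2L1 and −0.32 with medians. The summed FPKM of the 3 anti-apoptotic genes was 48.6 and 50.1 in siCHD4, against 50.6 and 50.7 in siCTL, since MCL1 holds most of it.

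**Figure D4:**
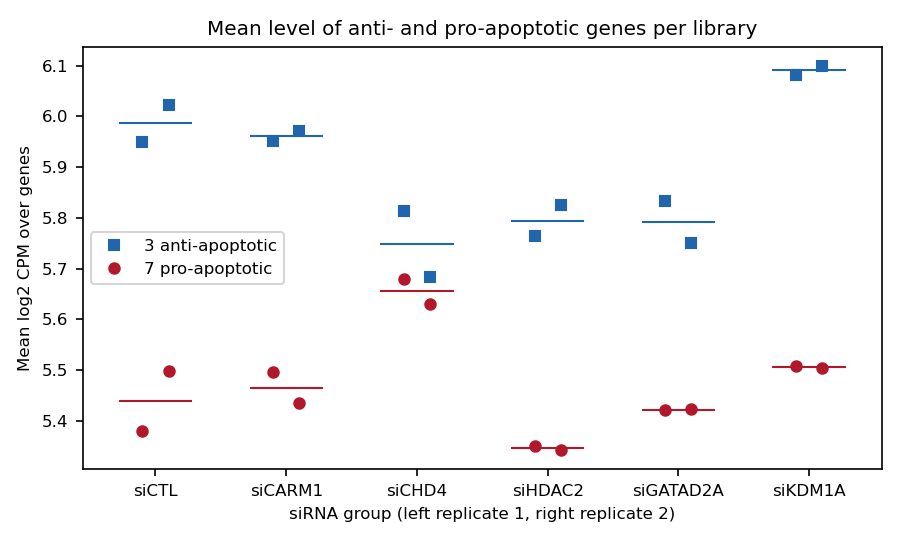
Mean log2 CPM over the 3 anti-apoptotic genes (squares) and over the 7 pro-apoptotic genes (circles) in each library, replicate 1 left and replicate 2 right, with a line at the group mean; the axis does not start at 0. The 2 means come closest in siCHD4, at 5.81 against 5.68 and 5.68 against 5.63.

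Other genes of the apoptotic pathway were examined as lists chosen by function. Of 60 listed genes 53 were tested, and over the 5 knockdowns their 265 values were called lower 49 times, higher 57 times and neither 159 times. Over all tested genes 9% to 24.9% were called lower and 10.6% to 24% higher in a knockdown. Those ranges are of single knockdowns and not of values pooled over 5. No list was tested as a set. By list, higher calls ran from 3 of 40 values for the death receptor pathway to 18 of 50 for the transcription factors. Of the 10 transcription factors tested, 6 were higher in siGATAD2A (15.7% of all genes) and 5 in siCHD4 (24%). In siCARM1 3 of them were higher (14.9%), in siKDM1A 3 (14.2%) and in siHDAC2 1 (10.6%). BCL2A1, BCL2L10, BCL2L14 and BCL2L15 of the wider family, the inhibitors BIRC7 and NAIP, and the p53 relative TP63 were below the expression filter, at 0.200 FPKM or less. In siCHD4 the median log2 fold change was −0.04 for the other family members and −0.27 for the mitochondrial factors, apoptosome and VDAC genes. It was 0.24 for caspases, −0.23 for the death receptor pathway and 0.11 for the inhibitors of apoptosis. For the transcription factors it was 0.17 and for the enzymes of MCL1 turnover −0.05, beside 0.00 for all genes.

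Of the other family members, HRK, a BH3-only gene best known from neurons, was called higher in all 5 knockdowns. It had 8.03 ± 0.627 CPM (SD, n = 2) in siCTL, 46.5 ± 1.53 in siCHD4, 31.1 ± 0.913 in siCARM1, 26.4 ± 0.644 in siGATAD2A, 17.6 ± 0.553 in siHDAC2 and 14.8 ± 0.192 in siKDM1A. Its log2 fold changes ran from 0.89 in siKDM1A to 2.54 in siCHD4, larger than that of any of the 10 members. BMF, a BH3-only gene whose product is held at the cytoskeleton, was called lower in 4 knockdowns, from 71.2 ± 2.01 CPM in siCTL to 26.8 ± 0.197 in siCHD4 (log2 fold change −1.41), and was −0.15 in siHDAC2. HRK and BMF belong to the same class and moved in opposite directions. BOK, an effector relative, had 8 and 14 counts in siCTL and 63 to 70 in siCHD4 (log2 fold change 2.38, standard error 0.326), and was called in siCHD4 alone. All 5 knockdowns are set against the same 2 siCTL libraries, so the repeated calls are not independent.

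Downstream of the pore, CYCS, which encodes cytochrome c, was called higher in all 5 knockdowns, with log2 fold changes of 0.38 in siHDAC2 to 0.90 in siCHD4. CYCS has processed copies elsewhere in the genome, and read pairs that map to several places were not counted, so its level is uncertain. ENDOG, a mitochondrial nuclease, was called lower in all 5, by −0.35 in siCARM1 to −0.99 in siCHD4, and 40.1% of its exonic bases lie under genes on the other strand. CASP9, the initiator caspase of the apoptosome, was called lower in siCARM1 (−0.70), siCHD4 (−0.70) and siKDM1A (−0.28).

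Of the inhibitors of apoptosis, XIAP, which blocks caspases directly, was called in siGATAD2A alone, with a log2 fold change of −0.45. BIRC3, a ubiquitin ligase of the TNF receptor pathway, was lower in siCHD4 (−1.49, from 145 and 200 counts in siCTL to 68 and 73) and higher in siCARM1 (0.56) and siKDM1A (0.42). Of the death receptor pathway, the TRAIL receptor gene TNFRSF10A was higher in siCHD4 (0.63) and siKDM1A (0.32) and lower in siGATAD2A (−0.44), and 16.7% of its exonic bases lie under antisense genes. RIPK1, a kinase that couples receptors to survival or death, was called lower in all but siHDAC2, by −0.29 to −0.57. CFLAR, which encodes the caspase-8 inhibitor c-FLIP, was lower in siCHD4 (−1.14) and siGATAD2A (−0.34).

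Of the transcription factors that act on the family, TP73, a p53 relative, was called lower in all 5 knockdowns, from −0.27 in siGATAD2A to −0.96 in siCHD4. ATF4, the factor of the integrated stress response and a known activator of PMAIP1, was called higher in 4 knockdowns, with log2 fold changes of 0.99 in siGATAD2A, 0.96 in siCHD4, 0.38 in siKDM1A and 0.31 in siCARM1. ATF4 and PMAIP1 were both called higher in siGATAD2A and siCARM1, while in siCHD4 ATF4 rose and PMAIP1 fell. In siKDM1A ATF4 was called higher and PMAIP1, at 0.11, was not called. In siHDAC2 neither was called, with ATF4 at 0.26 and PMAIP1 at −0.20. MYC was called higher in all but siGATAD2A, by 0.43 to 0.99.

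For the member of each role with the largest F over the 6 groups, the tested genes with the most similar pattern were those with the highest Pearson's r of log2 CPM over the 12 libraries. BAK1 was followed most closely by DNAH3 (r = 0.991), MFSD2A (0.981) and DUSP4 (0.981). For BCL2L1 they were USP43 (r = 0.970), MOB3A (0.967) and USP21 (0.944), and for PMAIP1 NUP43 (r = 0.943), ZC3H13 (0.942) and MFSD8 (0.937). These values are the highest of 12830 genes, over libraries that fall into 6 groups, and are given as a description. As RNA was taken from whole cultures, fewer cells of a kind and less of an mRNA per cell cannot be told apart for any of these genes.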

How the data were processed

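RNA-seq of 12 HEK293T libraries, 2 per siRNA group, was analysed. For each library the authors deposited unnormalized counts per Ensembl gene in the layout of STAR (the submitters' processing notes name STAR 2.7.10, CASAVA 1.4 and hg19) in 3 columns, unstranded and per strand. The paper's methods instead name TopHat, HOMER and DESeq2. Because the kit is directional, the reverse-strand column was used, and the opposite strand held 7.93% to 8.40% as many. Identifiers were matched to GENCODE release 44 on GRCh37 (58662, 96.7%). Fragments not assigned to 1 gene (unmapped, mapped to several places, on no gene or ambiguous, together 33.7% to 37.0%) stayed out of library sizes. Library sizes for CPM summed the counts of the coding genes tested, and those for FPKM the counts of all genes.

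FPKM, CPM (TMM factors 0.968 to 1.01) and log2 fold changes were computed here. Coding genes above 0.5 FPKM in a group mean (12830) were fitted in R 4.3.3 with edgeR 4.0.16 (quasi-likelihood, 6 group means, all libraries sharing 1 spread, biological coefficient of variation 3.47%). Calls needed an adjusted p (Benjamini-Hochberg, within a comparison) of at most 0.05 and a fold of 1.2, the thresholds of the study. log2 CPM used a prior count of 2. The test was checked on simulated data. DESeq2 1.42.0 was an alternative, as were RLE factors, a replicate block, 2 groups only, unstranded counts, other filters, no fold minimum and each library left out. Same-numbered libraries did not deviate together.

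The members and lists were chosen with earlier results of these data known. Named genes are all members, listed genes called the same way in at least 4 of 5 knockdowns, the 2 with the largest called change per list, and the 3 closest in pattern to the member of each role with the largest F. A listed gene that the rule names is not reported here, though it counts in the totals of its list.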

Additional observations from a re-analysis of the deposited data

Results flagged for a closer look

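The 3 opposite calls among the members concern BH3-only genes and siCHD4, and they were singled out because a gene was called higher in 1 knockdown and lower in another. PMAIP1 was higher in siCARM1 than in siCHD4 by 0.84 (log2, standard error 0.052). It was lower in siCHD4 than in siGATAD2A, with a difference of −0.66 (standard error 0.052). BID was higher in siCHD4 than in siHDAC2 by 0.92 (standard error 0.093). No p is given because the pairs were picked for this difference.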

How the results depend on the processing

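Over 20 alternatives the 50 member values gave 1000 values: no call changed sign, 7 were lost and 31 gained, and 28 values called in neither changed sign. All calls lost came from leaving out 1 library, and DESeq2 gave the same counts of called members. The replicate block moved no count of called members (siCHD4 3 lower and 4 higher, 45 over the pairs) and gave 58 other apoptosis genes higher in place of 57. Correlations of the deviations of same-numbered libraries ran from −0.142 to 0.136 (median 0.0226), with 1 of 15 over 0.1. Asking for no fold gave 1 member lower in siCARM1, 5 lower and 1 higher in siHDAC2, 3 lower and 2 higher in siGATAD2A, and 1 higher in siKDM1A. Over all genes it gave 2962 lower and 3030 higher in siCARM1 (1856 and 1912 with the fold), 2256 and 2283 in siHDAC2 (1155 and 1357), 2618 and 2814 in siKDM1A (1474 and 1826), and 3272 higher in siGATAD2A (2012). Members lower in siHDAC2 were 2 with unstranded counts, 3 with filterByExpr and 3 with no filter, and filterByExpr gave 2 lower in siGATAD2A. With 1 library left out, members lower ranged from 0 to 2 in siCARM1, 1 to 2 in siHDAC2 and 1 to 2 in siGATAD2A, and members higher from 1 to 2 in siCARM1 and 0 to 1 in siKDM1A. BIK counted in these changes: it was called lower in siCARM1 (−0.57) and siGATAD2A (−0.71) without replicate 1 of siCTL and higher in siKDM1A (0.71) without replicate 2.

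The pro- minus anti-apoptotic difference from siCTL moved most. With medians it was 0.11 in siCARM1, 0.77 in siCHD4, −0.016 in siGATAD2A and −0.32 in siKDM1A. With 1 member left out it was −0.037 in siCARM1 without PMAIP1, 0.16 in siHDAC2 without BCL2L1, 0.014 and −0.090 in siKDM1A without BCL2L1 and MCL1, and in siGATAD2A −0.025 without BCL2, 0.33 without BCL2L1, 0.23 without MCL1, 0.11 without PMAIP1 and 0.23 without BIK. In siCHD4 it was 0.35 without BCL2, 0.37 without BCL2L1, 0.63 without MCL1, 0.52 without BAX, 0.54 without PMAIP1, 0.38 without BID and 0.39 without BIK. The cause of these changes was not tested, beyond the fewer genes averaged. With 2 libraries per group, low counts limit BIK most.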

Other observations

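The enzymes that govern the turnover of MCL1 protein, a list of 5 genes that were all tested, were called lower 1 time and higher 2 times among 25 values over the 5 knockdowns, where 9% to 24.9% of all tested genes were called lower and 10.6% to 24% higher. HUWE1, a ubiquitin ligase of MCL1, had log2 fold changes of 0.32 in siCARM1, where it was called higher, 0.24 in siHDAC2, 0.24 in siGATAD2A, 0.23 in siCHD4 and −0.11 in siKDM1A. MARCHF5, a ligase of the outer mitochondrial membrane, was called lower in siCHD4 (−0.31) and higher in siGATAD2A (0.40).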
